A study of Homo sapiens with 30 samples.

Results

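Banhasasim-tang and Sayeok-tang are multi-herb formulas of Korean traditional medicine. Their effects on SW1783, an established human astrocytoma line, were compared at the highest dose given, 500 µg/mL. The comparison rests on 5 of the 30 libraries of the series, chosen by their sample labels: 2 of cells given Banhasasim-tang and 3 of cells given Sayeok-tang. Both extracts were made with 70% ethanol, and RNA was taken after 24 h. Beside these stand the same formulas at 100 and 20 µg/mL, again with 2 libraries for Banhasasim-tang and 3 for Sayeok-tang at each dose, and vehicle cells with 3 libraries. The sample labels give the vehicle as 0.1% DMSO, whereas the series design gives 2%. That design caps the highest dose of an extract at the concentration that inhibits growth by 20%, and for both formulas the labels state 500 µg/mL. Gene levels came from RNA sequencing and are given in CPM, counts relative to the size of the library after scaling by the trimmed mean of M values (TMM). The labels do not say whether libraries of a group came from separate cultures, so the p-values speak only of how far these libraries scatter, and that scatter could be technical. SW1783 is 1 line, and growth, viability and protein were not analysed here.

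In the herbal pharmacopoeia Banhasasim-tang combines Pinellia, Scutellaria and Coptis with dried ginger, ginseng, licorice and jujube, and Sayeok-tang combines aconite, dried ginger and licorice. The labels give neither recipe. Cells meet toxic or nutritional stress with a few shared programmes. In the integrated stress response (ISR), kinases that sense unfolded protein, amino acid lack, heme lack or double-stranded RNA phosphorylate eIF2 alpha. General translation then slows, while the transcription factor ATF4 is made and switches on genes of amino acid supply, tRNA charging and, through DDIT3 (CHOP), cell death. The unfolded protein response enlarges the folding capacity of the endoplasmic reticulum (ER), heat shock factors do the same for the cytosol, and NRF2 drives antioxidant enzymes. NF-kB drives cytokines, and E2F factors drive the genes of DNA replication.

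Libraries of the 5 samples held 37.55 and 54.19 M counts (M, mega) for Banhasasim-tang, against 59.9, 49.12 and 36.89 M counts for Sayeok-tang. The glial filament GFAP, the defining astrocyte marker, was nearly absent and was at 0.114 and 0.141 CPM in Banhasasim-tang libraries, against 0.161, 0.0400 and 0.105 CPM in Sayeok-tang libraries. Banhasasim-tang libraries carry label set 14 and Sayeok-tang libraries label set 15, so the formula and the label set cannot be told apart by these groups alone. Vehicle libraries carry a label set of their own, E1, so a formula and its label set cannot be told apart against the vehicle either. A feature of all 6 Banhasasim-tang libraries is a high share of mitochondrial ribosomal RNA, 7.82 and 7.70% of all counts at 500 µg/mL, against 1.44 to 1.64% for Sayeok-tang. It is described at the end, and its part in the other results was not tested.

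At 500 µg/mL the formulas differed in a large share of the transcriptome. Of 19632 genes tested with edgeR's quasi-likelihood test, 8101 (41.3%) passed an adjusted p of 0.05. Of these, 4157 (21.2% of the genes tested) were higher and 3944 (20.1%) lower in Banhasasim-tang libraries, and 986 differed more than 2-fold. The median log2 fold change over all genes was 0.0051. In 59.9% of the genes both Banhasasim-tang libraries lay beyond all 3 Sayeok-tang libraries, 30.9% above them and 29% below. The balance of directions depends on the scaling: with library size alone 2209 genes were higher and 6712 lower, and the median of all genes moved to -0.15. With the 2 mitochondrial ribosomal RNAs left out of the library size, a setting chosen after seeing the data, 3218 were higher and 4819 lower. Against the vehicle libraries, which both formulas share as controls, 10006 genes (51%) passed for Banhasasim-tang and 7514 (38.3%) for Sayeok-tang. The vehicle has another label set than either formula, so treatment and label set cannot be told apart in these counts.

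The 14 genes with the highest fold changes are described first. No overlap between the formulas was a condition of their choice, as for the 14 lowest, and 59.9% of all genes tested met it. ATF3 (ENSG00000162772, chr1:212565334-212620777, plus strand, GRCh38), a transcription factor induced by many stresses, had 30.3 and 30.6 CPM in Banhasasim-tang libraries, against 3.75, 4.599 and 3.72 CPM in Sayeok-tang libraries. GDF15 (ENSG00000130513, chr19:18374731-18389176, plus strand), a secreted cytokine of stressed cells that acts on appetite, had 248 and 285 CPM in Banhasasim-tang libraries, against 32.8, 39.3 and 34.1 CPM in Sayeok-tang libraries. DDIT3 (ENSG00000175197, chr12:57516588-57521737, minus strand), which codes for the pro-apoptotic factor CHOP, had 289 and 306 CPM in Banhasasim-tang libraries, against 59.5, 62.0 and 57.5 CPM in Sayeok-tang libraries. In each of these genes the replicate libraries lay close together. The log2 fold changes of Banhasasim-tang over Sayeok-tang were 2.92 ± 0.11 for ATF3, 2.91 ± 0.061 for GDF15 and 2.32 ± 0.073 for DDIT3 (± standard error), with edgeR adjusted p of 1.27e-17, 6.62e-23 and 1.59e-18. Vehicle cells were at 2.20 ± 0.411 CPM for ATF3, 4.13 ± 0.218 CPM for GDF15 and 23.8 ± 0.331 CPM for DDIT3 (SD, n = 3). OSCAR, a collagen-binding receptor first known from osteoclasts, had the highest fold change among these genes, with 4.49 and 4.48 CPM in Banhasasim-tang libraries, against 0.402, 0.4999 and 0.498 CPM in Sayeok-tang libraries (log2 fold change 3.27 ± 0.21). HKDC1, a hexokinase family member, had 45.3 and 45.3 CPM in Banhasasim-tang libraries, against 5.63, 5.32 and 5.56 CPM in Sayeok-tang libraries (3.04 ± 0.094). NGFR, the p75 neurotrophin receptor, had 24.3 and 26.3 CPM in Banhasasim-tang libraries, against 2.69, 3.24 and 3.51 CPM in Sayeok-tang libraries (3.02 ± 0.12). OSCAR was scarce with both formulas.

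The rest of the 14 highest were LAMP3, a lysosomal membrane protein (3.00), the chemokines CXCL3 (2.93) and CXCL8 (2.23), and IRF4, a transcription factor of lymphoid cells (2.74). They also included KCP, a secreted modulator of BMP signals (2.68), BEX4 (2.64), the hair follicle keratin KRT75 (2.35) and the tight junction protein CLDN1 (2.30). CLDN1 had 30.1 and 29.05 CPM in Banhasasim-tang libraries, against 5.595, 6.18 and 6.32 CPM in Sayeok-tang libraries. KCP had 18.2 and 19.3 CPM in Banhasasim-tang libraries, against 2.48, 3.06 and 3.30 CPM in Sayeok-tang libraries. LAMP3, CXCL3, IRF4 and KRT75 lay below 1 CPM in all Sayeok-tang libraries, so their large ratios start from a low level.

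**Figure D1:**
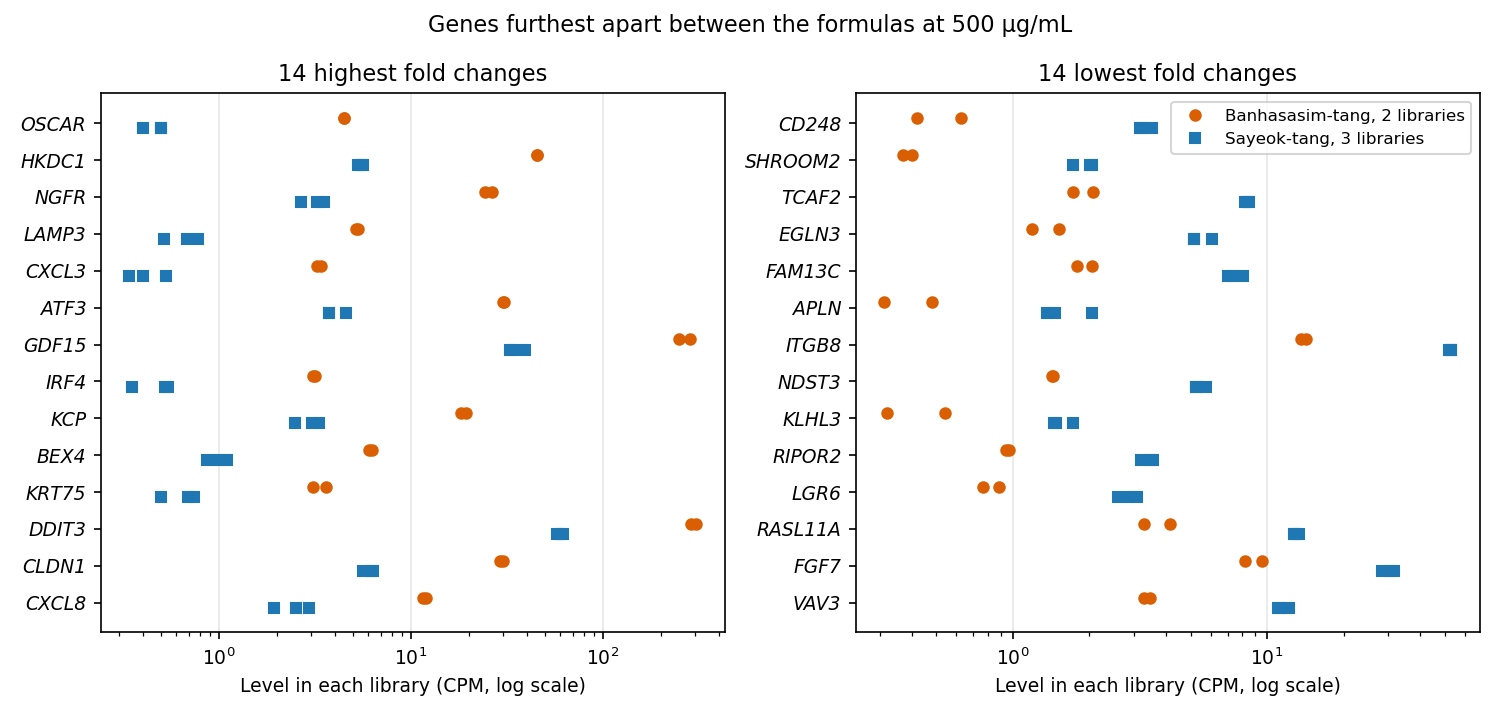
Levels in CPM on a log axis of the 14 genes with the highest and the 14 with the lowest log2 fold change at 500 µg/mL, 1 point per library, with circles for Banhasasim-tang and squares for Sayeok-tang. The groups do not overlap in any of these genes, a condition of their choice, and DDIT3 and GDF15 reach the highest levels of the left panel.

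The 14 genes with the lowest fold changes follow. CD248 (ENSG00000174807, chr11:66314487-66317044, minus strand), endosialin, a surface protein of pericytes and fibroblasts, had 0.625 and 0.422 CPM in Banhasasim-tang libraries, against 3.22, 3.18 and 3.54 CPM in Sayeok-tang libraries (-2.69 ± 0.17). ITGB8 (ENSG00000105855, chr7:20330702-20415754, plus strand), an integrin subunit that activates latent TGF-beta, had 14.2 and 13.5 CPM in Banhasasim-tang libraries, against 53.1, 52.6 and 51.8 CPM in Sayeok-tang libraries (-1.92 ± 0.10). FGF7, the keratinocyte growth factor, had 9.55 and 8.18 CPM in Banhasasim-tang libraries, against 30.5, 31.7 and 28.3 CPM in Sayeok-tang libraries (-1.78 ± 0.075). CD248 was scarce with both formulas. EGLN3, a prolyl hydroxylase that marks hypoxia-inducible factors for destruction, had 1.19 and 1.53 CPM in Banhasasim-tang libraries, against 5.16, 6.10 and 5.16 CPM in Sayeok-tang libraries (-1.98 ± 0.14). VAV3, a guanine nucleotide exchange factor, had 3.27 and 3.46 CPM in Banhasasim-tang libraries, against 11.1, 11.3 and 12.2 CPM in Sayeok-tang libraries (-1.76 ± 0.090). The others were SHROOM2 (-2.29), which shapes apical actin, TCAF2 (-2.15), a regulator of TRP channels, FAM13C (-1.97), the peptide ligand APLN (-1.95) and NDST3 (-1.92), a heparan sulfate sulfotransferase. Also among them were KLHL3 (-1.88), a cullin adaptor, RIPOR2 (-1.84), LGR6 (-1.81), a receptor of R-spondins, and RASL11A (-1.79), a small GTPase-like protein.

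The ISR list had the highest median of the 47 gene lists: 19 of 23 tested members were higher and 1 lower, and the median log2 fold change was 0.70, beside 0.0051 over all genes. With library size as the only scaling 14 were higher and 2 lower. TRIB3, a pseudokinase that feeds back on ATF4 and CHOP, had 282 and 290.4 CPM in Banhasasim-tang libraries, against 60.6, 69.4 and 64.6 CPM in Sayeok-tang libraries (2.14 ± 0.058). ATF4 itself, the factor at the centre of the response, had 369.7 and 394 CPM in Banhasasim-tang libraries, against 208, 222 and 225 CPM in Sayeok-tang libraries (0.81 ± 0.074). PPP1R15A, the phosphatase subunit that ends the response, had 209 and 226 CPM in Banhasasim-tang libraries, against 69.6, 73.2 and 75.7 CPM in Sayeok-tang libraries (1.58 ± 0.047). All 3 were higher in both Banhasasim-tang libraries than in any Sayeok-tang library. Of the kinases that start the response, EIF2AK3 (PERK) differed by 0.037 ± 0.054, EIF2AK2 (PKR) by -0.018 ± 0.071 and EIF2AK1 (HRI) by -0.010 ± 0.041, none passing the test except EIF2AK1 with library size alone (-0.16), while EIF2AK4 (GCN2) was higher by 0.19 ± 0.050. The 1 member that was lower was ATF5, an ATF4-related factor (-0.23 ± 0.065). CHAC1, which breaks down glutathione, had 37.3 and 40.5 CPM in Banhasasim-tang libraries, against 18.2, 19.2 and 21.4 CPM in Sayeok-tang libraries (0.996 ± 0.083), and SESN2, a leucine sensor upstream of mTORC1, had 95.8 and 107 CPM in Banhasasim-tang libraries, against 42.3, 43.4 and 44.6 CPM in Sayeok-tang libraries (1.22 ± 0.048). CEBPB, a partner of ATF4 on DNA, had 141 and 91.7 CPM in Banhasasim-tang libraries, against 81.5, 88.2 and 73.5 CPM in Sayeok-tang libraries (0.52 ± 0.16, edgeR adjusted p = 0.0154). Its Banhasasim-tang libraries lay far apart, and the lower one was just above the highest Sayeok-tang library. With library size alone the calls of EIF2AK4 and CEBPB were lost, and without Banhasasim-tang replicate 2 those of ATF5 and CEBPB (0.18). The call of CEBPB was also lost with the compared groups alone and without Sayeok-tang replicate 3.

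Promoters of ISR genes are shown because the members moved together and ATF4 binds a known composite element. The letters searched were TGATGNAA, on both strands, in the 250 bases before the start site (RefSeq, GRCh38.p14), and capitals mark a match. They were present in 4 of 21 promoters of the ISR list and in 2 of 11 of the serine and asparagine list. The tRNA charging list (aminoacyl-tRNA synthetases) had them in 2 of 16, and all 27305 promoters in 3.19%. ATF4 is known to act on genes of these lists, so the shares are no test of the element. ATF3 lies at chr1:212565157-212565406 (plus strand), CHAC1 at chr15:40953221-40953470 (plus strand, match on the opposite strand) and ASNS at chr7:97872409-97872658 (minus strand).
ATF3: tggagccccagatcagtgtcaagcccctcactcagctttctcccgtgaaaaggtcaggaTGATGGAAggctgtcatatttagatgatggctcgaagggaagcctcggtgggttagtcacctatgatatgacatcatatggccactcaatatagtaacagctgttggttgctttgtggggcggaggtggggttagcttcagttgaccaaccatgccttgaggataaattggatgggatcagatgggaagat
CHAC1: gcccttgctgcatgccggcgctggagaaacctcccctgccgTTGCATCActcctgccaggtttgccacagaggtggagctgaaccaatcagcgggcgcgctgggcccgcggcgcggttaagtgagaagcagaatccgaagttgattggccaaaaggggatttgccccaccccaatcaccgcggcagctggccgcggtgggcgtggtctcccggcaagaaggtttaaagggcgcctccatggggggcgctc
ASNS: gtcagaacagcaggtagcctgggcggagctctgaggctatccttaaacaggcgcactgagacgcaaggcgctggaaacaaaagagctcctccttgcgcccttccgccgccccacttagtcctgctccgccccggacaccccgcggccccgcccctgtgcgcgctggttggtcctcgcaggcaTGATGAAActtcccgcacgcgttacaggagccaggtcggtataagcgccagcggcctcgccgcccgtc
The first matching base lay 191 bases before the start in ATF3, 209 in CHAC1 and 68 in ASNS. A match describes the letters and is no measure of binding. The ATF3 window lies at the upstream end of the gene's span (chr1:212565334-212620777). Other start sites within a gene were not searched, so a match need not be an element known from other work.

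Genes that make and charge amino acids followed the same direction. In the list of serine, one-carbon and asparagine synthesis 13 of 16 tested members were higher and 2 lower, with a median of 0.66. ASNS, the asparagine synthetase, had 337 and 335 CPM in Banhasasim-tang libraries, against 148, 160.2 and 147 CPM in Sayeok-tang libraries (1.15 ± 0.059). CBS and CTH, the enzymes that turn homocysteine into cysteine, differed by 1.17 ± 0.062 and 1.52 ± 0.071. PCK2, the mitochondrial phosphoenolpyruvate carboxykinase, differed by 1.11 ± 0.056, and MTHFD2, of mitochondrial folate metabolism, by 1.02 ± 0.041. The 2 lower members were enzymes of cytosolic folate metabolism: SHMT1 had 21.5 and 22.5 CPM in Banhasasim-tang libraries, against 38.5, 40.5 and 37.2 CPM in Sayeok-tang libraries (-0.82 ± 0.056) and MTHFD1 differed by -0.20 ± 0.039. Of the amino acid transporters 10 of 17 were higher and 5 lower (median 0.37). SLC1A4, a carrier of alanine, serine and cysteine, had 86.5 and 86.7 CPM in Banhasasim-tang libraries, against 49.2, 48.7 and 49.99 CPM in Sayeok-tang libraries (0.81 ± 0.048). SLC7A11, the cystine importer, had 415 and 379 CPM in Banhasasim-tang libraries, against 266, 255 and 274 CPM in Sayeok-tang libraries (0.58 ± 0.094). SLC38A1, a glutamine carrier, was higher (0.78 ± 0.072), whereas SLC7A8 (-0.79 ± 0.093) and SLC38A3 (-1.02 ± 0.20) were lower. Among aminoacyl-tRNA synthetases, which load tRNAs, 14 of 20 were higher and 0 lower (median 0.39); with library size alone these were 12 and 5. AARS1 had 564 and 581 CPM in Banhasasim-tang libraries, against 300.1, 296 and 296 CPM in Sayeok-tang libraries (0.94 ± 0.035) and GARS1 differed by as much (0.94 ± 0.041), both in groups that did not overlap.

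The ER folding list was higher without exception among its called members, 19 of 23 against 0 lower, with a median of 0.42. HSPA5 (BiP; ENSG00000044574, chr9:125234853-125241330, minus strand), the main ER chaperone and sensor of folding load, had 13727 and 14274 CPM in Banhasasim-tang libraries, against 5814, 5992 and 5395 CPM in Sayeok-tang libraries (1.29 ± 0.049, edgeR adjusted p = 1.29e-17). HERPUD1, of ER-associated degradation, had 386 and 384 CPM in Banhasasim-tang libraries, against 128, 132 and 128 CPM in Sayeok-tang libraries (1.57 ± 0.055). ERN1 (IRE1 alpha), the sensor that splices XBP1 RNA, had 58.0 and 59.7 CPM in Banhasasim-tang libraries, against 22.7, 21.9 and 23.1 CPM in Sayeok-tang libraries (1.38 ± 0.062). Each of these levels was more than 2-fold higher in every Banhasasim-tang library than in any Sayeok-tang library. DNAJB9, a co-chaperone of BiP, differed by 1.24 ± 0.054, SEL1L, of the degradation channel, by 0.82 ± 0.052, and XBP1 by 0.49 ± 0.056. Counts per gene do not tell spliced from unspliced XBP1.

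The ER stress response element (CCAAT, then any 9 bases, then CCACG), searched on both strands, was found in 6 of 21 promoters of this list and in 0.0806% of all promoters. The list was made of genes of the unfolded protein response, so its share is no test of the element. Shown for the chaperone gene and for a match on the other strand are HSPA5 at chr9:125241344-125241593 (minus strand) and CRELD2, a secreted ER protein, at chr22:49918384-49918633 (plus strand, match on the opposite strand).
HSPA5: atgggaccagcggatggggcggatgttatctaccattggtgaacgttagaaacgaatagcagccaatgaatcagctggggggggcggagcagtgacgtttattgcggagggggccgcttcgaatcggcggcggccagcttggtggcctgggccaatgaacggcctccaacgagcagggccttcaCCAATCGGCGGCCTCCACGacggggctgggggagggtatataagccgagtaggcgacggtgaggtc
CRELD2: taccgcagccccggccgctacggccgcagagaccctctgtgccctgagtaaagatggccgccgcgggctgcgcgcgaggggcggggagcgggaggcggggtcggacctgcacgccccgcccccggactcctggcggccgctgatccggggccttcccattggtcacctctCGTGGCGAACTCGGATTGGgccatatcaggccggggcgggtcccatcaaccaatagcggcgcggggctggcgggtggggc
The first matching base lay 66 bases before the start in HSPA5 and 80 in CRELD2.

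Genes of the heat shock list went the other way. Of 21 tested, 14 were lower and 3 higher in Banhasasim-tang libraries, with a median of -0.46. HSPA1A, the inducible HSP70, had 55.4 and 59.1 CPM in Banhasasim-tang libraries, against 182, 177 and 186 CPM in Sayeok-tang libraries (-1.66 ± 0.049). Its near-identical copy HSPA1B had 64.7 and 69.8 CPM in Banhasasim-tang libraries, against 171, 166 and 169.6 CPM in Sayeok-tang libraries (-1.33 ± 0.051), and how reads were divided between the copies is uncertain. HSPA8, the constitutive HSC70, had 550.2 and 587 CPM in Banhasasim-tang libraries, against 1251, 1259 and 1178 CPM in Sayeok-tang libraries (-1.11 ± 0.044). The small heat shock protein HSPB8 (-0.995 ± 0.067) and the co-chaperone DNAJA1 (-0.88 ± 0.052) were lower too. The higher members were HSF1 (0.47 ± 0.049), the heat shock factor itself, the co-chaperone FKBP4 (0.19 ± 0.046, not called with library size alone) and HSPA9, the mitochondrial HSP70, with 733 and 723 CPM in Banhasasim-tang libraries, against 476, 479 and 440.0 CPM in Sayeok-tang libraries (0.65 ± 0.044). Of the HSP70 family, then, the ER and mitochondrial forms were higher and the cytosolic forms lower. Vehicle cells were at 3565 ± 47.6 CPM for HSPA5 and 119.9 ± 2.79 CPM for HSPA1A (SD, n = 3).

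**Figure D2:**
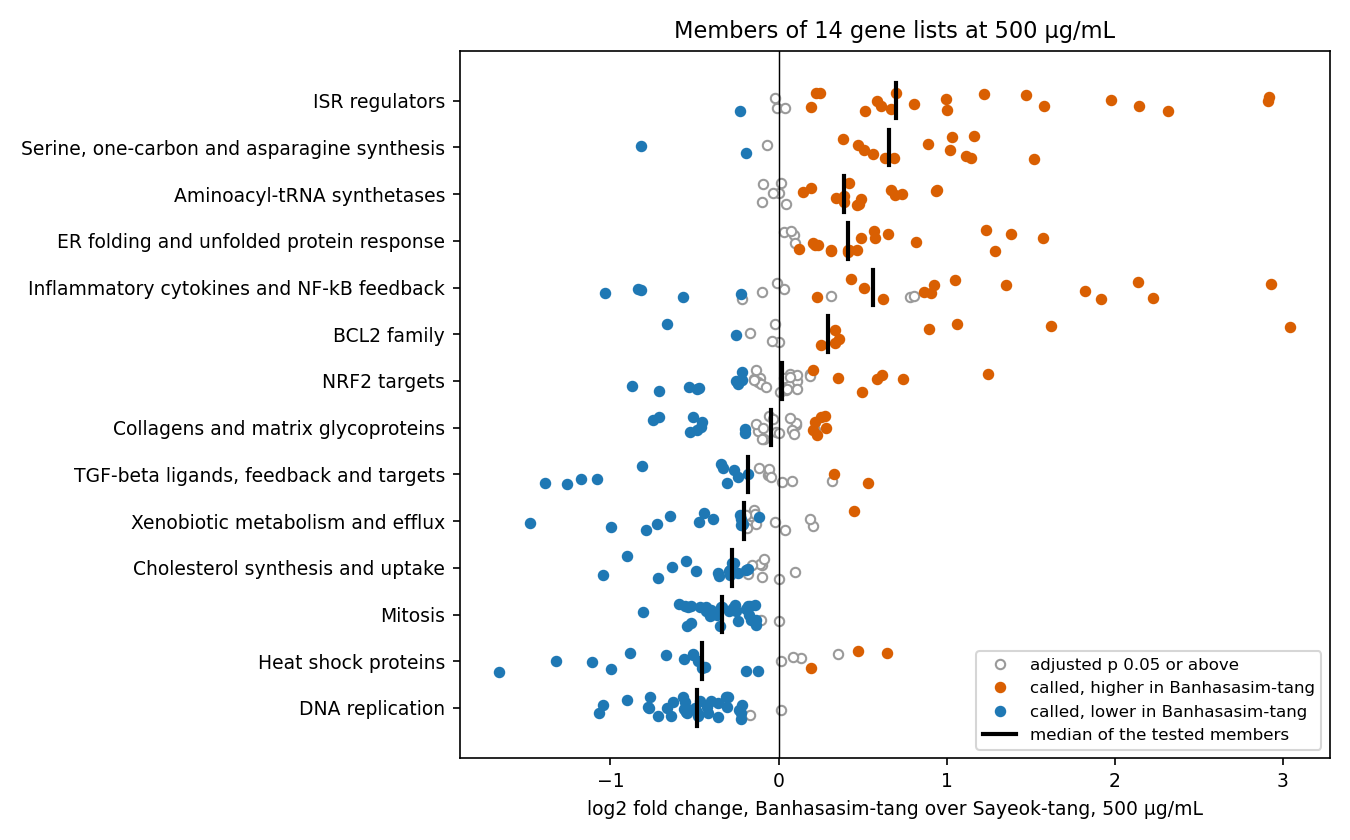
Log2 fold change of Banhasasim-tang over Sayeok-tang at 500 µg/mL (horizontal axis) for each tested member of 14 gene lists, with filled points for members past an adjusted p of 0.05 and bars for list medians. The medians run from 0.70 for ISR regulators to -0.48 for DNA replication.

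DNA replication genes were lower almost throughout, 33 of 35 tested members against 0 higher, with a median of -0.48. ORC1, of the origin recognition complex, had 7.39 and 8.14 CPM in Banhasasim-tang libraries, against 16.6, 15.9 and 16.5 CPM in Sayeok-tang libraries (-1.07 ± 0.067). CCNE2, the cyclin that opens S phase, had 12.2 and 12.1 CPM in Banhasasim-tang libraries, against 25.2, 24.8 and 25.0 CPM in Sayeok-tang libraries (-1.04 ± 0.059). RRM2, the subunit of ribonucleotide reductase that makes deoxynucleotides, had 92.6 and 84.8 CPM in Banhasasim-tang libraries, against 156, 157 and 142 CPM in Sayeok-tang libraries (-0.78 ± 0.047). In all 3 genes both Banhasasim-tang libraries lay below every Sayeok-tang library. Of the mitosis genes 29 of 31 were lower and 0 higher (median -0.34). MKI67, the proliferation marker, had 97.4 and 88.7 CPM in Banhasasim-tang libraries, against 164, 151 and 173 CPM in Sayeok-tang libraries (-0.81 ± 0.11), and AURKA, a spindle kinase, had 47.5 and 46.9 CPM in Banhasasim-tang libraries, against 68.6, 70.2 and 68.2 CPM in Sayeok-tang libraries (-0.55 ± 0.044). In bulk RNA, fewer cells in a phase and less RNA per cell cannot be told apart. In the list of G1 regulators 4 of 15 were higher and 5 lower, and 2 and 6 with library size alone. CDKN2C, an inhibitor of CDK4 and CDK6, had 39.0 and 39.8 CPM in Banhasasim-tang libraries, against 89.7, 94.7 and 88.6 CPM in Sayeok-tang libraries (-1.21 ± 0.059). MYC had 102 and 112 CPM in Banhasasim-tang libraries, against 54.8, 60.6 and 57.7 CPM in Sayeok-tang libraries (0.89 ± 0.058), in the direction opposite to the replication genes.

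The E2F letters TTTNGCGC, searched on both strands, were found in 7 of 30 replication promoters and in 1.54% of all promoters. Replication genes are known targets of E2F factors, so this share is no test of the site. MCM6, a subunit of the replicative helicase, is shown at chr2:135876444-135876693 (minus strand) because it holds 4 matches, as overlapping pairs on opposite strands.
MCM6: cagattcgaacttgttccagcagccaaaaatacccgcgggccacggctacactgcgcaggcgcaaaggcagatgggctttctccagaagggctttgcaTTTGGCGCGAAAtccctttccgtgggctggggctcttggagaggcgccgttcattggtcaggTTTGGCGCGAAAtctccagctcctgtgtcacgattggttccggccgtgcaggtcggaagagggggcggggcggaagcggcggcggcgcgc
MCM6 itself differed by -0.48 ± 0.049, with 38.5 and 35.7 CPM in Banhasasim-tang libraries, against 51.5, 53.4 and 50.4 CPM in Sayeok-tang libraries.

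Triggers of cell death were among the higher genes. BBC3 (PUMA), a trigger of the mitochondrial pathway, had 1.99 and 2.61 CPM in Banhasasim-tang libraries, against 0.724, 0.820 and 0.708 CPM in Sayeok-tang libraries (1.62 ± 0.21). PMAIP1 (NOXA), of the same class, had 82.5 and 72.3 CPM in Banhasasim-tang libraries, against 36.7, 40.3 and 33.8 CPM in Sayeok-tang libraries (1.06 ± 0.070). BCL2, which restrains them, had 13.6 and 13.5 CPM in Banhasasim-tang libraries, against 6.90, 7.78 and 7.21 CPM in Sayeok-tang libraries (0.89 ± 0.075), so members with opposed roles were both higher. In the BCL2 family 8 of 14 were higher and 2 lower (median 0.29), and BMF was among the lower ones (-0.66 ± 0.11). The list of p53 targets was split, with 7 of 21 higher and 3 lower under TMM but 5 and 7 with library size alone. Its largest differences were GADD45A, a growth arrest gene, with 122 and 119 CPM in Banhasasim-tang libraries, against 36.1, 39.9 and 34.9 CPM in Sayeok-tang libraries (1.71 ± 0.072), and TNFRSF10B, the TRAIL receptor DR5, with 190.2 and 191 CPM in Banhasasim-tang libraries, against 66.6, 66.4 and 67.6 CPM in Sayeok-tang libraries (1.51 ± 0.037). Both genes are also known targets of the ISR. Of 2 defining p53 targets, CDKN1A (p21) differed by 0.064 ± 0.068 and did not pass, and MDM2 was higher by 0.28 ± 0.058, a call lost with library size alone (0.13).

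Inflammatory genes were higher more often than lower. Of 26 tested, 14 were higher and 5 lower, with a median of 0.57. The formulas moved these genes in different ways. From 20 to 500 µg/mL 13 rose and 7 fell with Banhasasim-tang, and 2 rose and 10 fell with Sayeok-tang. Of all genes 22.3% rose and 21.3% fell with Banhasasim-tang, against 9.89 and 10.6% with Sayeok-tang. CXCL8 (ENSG00000169429, chr4:73740506-73743716, plus strand), the interleukin that attracts neutrophils, had 11.9 and 11.5 CPM in Banhasasim-tang libraries, against 2.51, 2.96 and 1.94 CPM in Sayeok-tang libraries (2.23 ± 0.12). IL6, a pleiotropic cytokine of the acute phase, had 21.1 and 24.2 CPM in Banhasasim-tang libraries, against 5.92, 7.16 and 6.21 CPM in Sayeok-tang libraries (1.82 ± 0.090). IL1A, an alarmin, had 4.72 and 4.801 CPM in Banhasasim-tang libraries, against 1.14, 1.36 and 1.28 CPM in Sayeok-tang libraries (1.92 ± 0.20). Banhasasim-tang libraries were the higher ones in all 3, without overlap. CXCL3 had 3.24 and 3.39 CPM in Banhasasim-tang libraries, against 0.531, 0.400 and 0.341 CPM in Sayeok-tang libraries and CXCL2 had 2.90 and 3.01 CPM in Banhasasim-tang libraries, against 0.611, 0.700 and 0.708 CPM in Sayeok-tang libraries; the CXCL1, CXCL2 and CXCL3 genes are similar in sequence, so their division of reads is uncertain. RELB, a subunit of NF-kB, had 33.03 and 35.9 CPM in Banhasasim-tang libraries, against 16.9, 16.7 and 16.4 CPM in Sayeok-tang libraries (1.05 ± 0.063). Against these, the alarmin IL33 was lower, with 2.47 and 2.77 CPM in Banhasasim-tang libraries, against 4.97, 5.62 and 5.71 CPM in Sayeok-tang libraries (-1.03 ± 0.10). Of interferon-response genes 6 of 24 were higher and 9 lower (median -0.15), and 5 and 13 with library size alone. IFIT1, which binds viral RNA, had 5.77 and 7.01 CPM in Banhasasim-tang libraries, against 10.2, 11.8 and 10.2 CPM in Sayeok-tang libraries (-0.74 ± 0.12).

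The kappa B letters GGAATTTCC, searched on both strands, were found in 8 of 24 promoters of the inflammatory list and in 0.428% of all promoters. That list holds feedback genes of NF-kB, such as NFKBIA, so its share is no test of the site. CXCL8 is shown at chr4:73740319-73740568 (plus strand) and CXCL3 at chr4:74038690-74038939 (minus strand), as the list's genes furthest apart.
CXCL8: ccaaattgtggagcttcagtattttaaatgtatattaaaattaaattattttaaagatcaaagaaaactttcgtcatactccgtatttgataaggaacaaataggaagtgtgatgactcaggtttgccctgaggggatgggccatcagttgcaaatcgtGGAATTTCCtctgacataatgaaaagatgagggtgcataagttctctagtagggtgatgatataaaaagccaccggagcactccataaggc
CXCL3: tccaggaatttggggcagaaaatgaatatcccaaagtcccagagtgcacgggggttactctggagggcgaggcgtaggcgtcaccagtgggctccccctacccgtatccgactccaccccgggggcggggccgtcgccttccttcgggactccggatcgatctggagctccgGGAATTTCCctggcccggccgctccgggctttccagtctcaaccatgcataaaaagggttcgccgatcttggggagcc
The first matching base lay 91 bases before the start in CXCL8 and 78 in CXCL3.

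Genes of lipid synthesis were lower. Of 25 cholesterol genes 17 were lower and 0 higher (median -0.28), and of 11 fatty acid genes 7 were lower and 0 higher (median -0.14). DHCR7, a sterol reductase of late cholesterol synthesis, had 31.7 and 32.2 CPM in Banhasasim-tang libraries, against 48.9, 48.8 and 51.1 CPM in Sayeok-tang libraries (-0.63 ± 0.058). FADS2, a fatty acid desaturase, had 40.5 and 43.0 CPM in Banhasasim-tang libraries, against 86.3, 87.5 and 90.9 CPM in Sayeok-tang libraries (-1.08 ± 0.049). Both genes were lower in each Banhasasim-tang library than in any Sayeok-tang library. The sterol exporter ABCA1, a target of LXR, was higher instead, with 148 and 139 CPM in Banhasasim-tang libraries, against 55.1, 55.4 and 54.0 CPM in Sayeok-tang libraries (1.38 ± 0.087), and ABCG1 had 1.99 and 1.81 CPM in Banhasasim-tang libraries, against 0.691, 0.300 and 0.419 CPM in Sayeok-tang libraries (1.97 ± 0.31). In the whole LXR list 3 of 8 were higher and 1 lower, which library size alone turned to 2 and 4.

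Antioxidant genes did not share a direction between the formulas, unlike the stress programmes above. Of 36 NRF2 targets 7 were higher and 9 lower (median 0.019), beside 21.2 and 20.1% of all genes. With library size alone 5 were higher and 19 lower. From 20 to 500 µg/mL, however, 23 rose and 2 fell with Banhasasim-tang, and 28 rose and 0 fell with Sayeok-tang. Of all genes 22.3% rose and 21.3% fell with Banhasasim-tang, against 9.89 and 10.6% with Sayeok-tang. GCLC, the catalytic subunit of the rate-limiting enzyme of glutathione synthesis, had 111 and 104 CPM in Banhasasim-tang libraries, against 45.5, 47.1 and 43.1 CPM in Sayeok-tang libraries (1.247 ± 0.044). NQO1, a defining NRF2 target, had 293 and 301 CPM in Banhasasim-tang libraries, against 315, 339 and 312 CPM in Sayeok-tang libraries and did not pass the test (-0.12 ± 0.056), but was called lower with library size alone (-0.27). HMOX1, heme oxygenase, was slightly lower, with 321 and 352 CPM in Banhasasim-tang libraries, against 377, 419 and 399 CPM in Sayeok-tang libraries (-0.24 ± 0.057), a call lost without Banhasasim-tang replicate 2 (-0.18). AKR1B10, an aldo-keto reductase, was lower (-0.87 ± 0.13). Heme and iron genes gave 5 higher and 7 lower of 18, and 2 and 10 with library size alone, with FTH1, the ferritin heavy chain, at 3971 and 4213 CPM in Banhasasim-tang libraries, against 3033, 3448 and 3117 CPM in Sayeok-tang libraries (0.36 ± 0.090), a call lost with library size alone (0.20) and without Banhasasim-tang replicate 3. Of 11 metallothionein and zinc genes 3 were higher and 3 lower, and 1 and 5 with library size alone. Metallothioneins share reads between near-identical copies, and MT1X had 10.97 and 12.3 CPM in Banhasasim-tang libraries, against 19.5, 22.8 and 21.7 CPM in Sayeok-tang libraries (-0.87 ± 0.12).

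In the list of xenobiotic metabolism and efflux, the handling of foreign compounds, 14 of 26 tested members were lower and 1 higher (median -0.20). The other 11 were not called. The summed level of the list overlapped, at 1871 to 1931 CPM for Banhasasim-tang, against 1865 to 1911 CPM for Sayeok-tang. The difference between the formulas' dose effects passed in 7 members lower and 1 higher. The list also holds enzymes of the body's own compounds. CYP26B1, which degrades retinoic acid, had 12.7 and 14.7 CPM in Banhasasim-tang libraries, against 39.6, 35.5 and 40.1 CPM in Sayeok-tang libraries (-1.48 ± 0.066). In the AhR pathway 5 of 10 were lower and 1 higher (median -0.49). CYP1B1, a target of the aryl hydrocarbon receptor, had 112 and 115 CPM in Banhasasim-tang libraries, against 189, 192 and 188 CPM in Sayeok-tang libraries (-0.74 ± 0.16), and CYP1A1, its best known target, had 0.540 and 0.663 CPM in Banhasasim-tang libraries, against 1.58, 1.52 and 1.60 CPM in Sayeok-tang libraries (-1.36 ± 0.33). The difference between the formulas' dose effects, described further on, did not pass for either gene. It was -0.22 ± 0.22 for CYP1B1 and -0.33 ± 0.46 for CYP1A1, with edgeR adjusted p of 0.522 and 0.668.

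Collagens and matrix glycoproteins were mixed (6 of 30 higher, 9 lower, median -0.044), with library size alone at 1 and 14. The fibrillar collagen COL1A1 had 1453 and 1518 CPM in Banhasasim-tang libraries, against 2597, 2408 and 2469 CPM in Sayeok-tang libraries (-0.75 ± 0.045), and THBS1 (thrombospondin), which activates TGF-beta, had 515 and 517 CPM in Banhasasim-tang libraries, against 889.6, 806 and 839.6 CPM in Sayeok-tang libraries (-0.71 ± 0.11). Matrix proteases and inhibitors were higher in 7 of 23 and lower in 1 (median 0.24), and 7 and 3 with library size alone. ADAMTS6 had 47.1 and 43.7 CPM in Banhasasim-tang libraries, against 12.5, 11.5 and 12.8 CPM in Sayeok-tang libraries (1.89 ± 0.066), and ADAMTS1, which cuts proteoglycans, had 63.1 and 55.1 CPM in Banhasasim-tang libraries, against 27.4, 24.7 and 26.6 CPM in Sayeok-tang libraries (1.17 ± 0.062). Of hyaluronan genes 3 of 11 were higher and 7 lower: HAS2, the main synthase, had 46.1 and 48.2 CPM in Banhasasim-tang libraries, against 29.1, 26.6 and 27.4 CPM in Sayeok-tang libraries (0.77 ± 0.061), and CEMIP, which breaks hyaluronan down, had 19.4 and 18.9 CPM in Banhasasim-tang libraries, against 11.5, 10.2 and 10.8 CPM in Sayeok-tang libraries (0.82 ± 0.12). Its relative CEMIP2 was lower, with 53.6 and 51.3 CPM in Banhasasim-tang libraries, against 94.4, 88.8 and 93.1 CPM in Sayeok-tang libraries (-0.81 ± 0.079). The TGF-beta list was lower in 11 of 21 and higher in 2 (median -0.18). BMP4, a ligand, had 2.81 and 3.39 CPM in Banhasasim-tang libraries, against 7.97, 8.60 and 8.07 CPM in Sayeok-tang libraries (-1.39 ± 0.092), and TGFB3, another, had 4.97 and 5.20 CPM in Banhasasim-tang libraries, against 12.3, 11.9 and 12.6 CPM in Sayeok-tang libraries (-1.26 ± 0.10). Known targets of BMP signals were lower too, ID2 at -1.18 ± 0.066, ID3 at -0.82 ± 0.10 and the inhibitor SMAD6 at -1.08 ± 0.068.

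The list of SRF targets and actin genes and that of YAP targets depended on the scaling. SRF targets were higher in 9 of 18 and lower in 0 under TMM, but 5 and 5 with library size alone. YAP targets gave 6 higher and 3 lower of 15, and 4 and 4 with library size alone. From 20 to 500 µg/mL both lists fell more often than they rose. Of SRF targets 1 rose and 12 fell with Banhasasim-tang, and 0 and 16 with Sayeok-tang. Of YAP targets 4 rose and 7 fell with Banhasasim-tang, and 0 and 9 with Sayeok-tang. Of all genes 21.3 and 10.6% fell, in that order of formulas. CCN1, a matricellular YAP target, had 429.9 and 424 CPM in Banhasasim-tang libraries, against 271, 261 and 250.2 CPM in Sayeok-tang libraries (0.71 ± 0.089). Of MAPK feedback and early genes 9 of 20 were higher and 5 lower, and 9 and 6 with library size alone. DUSP5, a phosphatase of nuclear ERK, had 46.1 and 47.7 CPM in Banhasasim-tang libraries, against 13.6, 13.9 and 12.6 CPM in Sayeok-tang libraries (1.81 ± 0.060), whereas the early gene FOS was lower, with 1.11 and 1.23 CPM in Banhasasim-tang libraries, against 2.44, 2.96 and 2.44 CPM in Sayeok-tang libraries (-1.15 ± 0.17). In the FOXO and PI3K list 3 of 13 were higher and 5 lower: IRS2, an insulin receptor substrate, had 119.8 and 113 CPM in Banhasasim-tang libraries, against 36.9, 37.4 and 37.1 CPM in Sayeok-tang libraries (1.65 ± 0.058), and its relative IRS1 had 55.8 and 58.1 CPM in Banhasasim-tang libraries, against 90.3, 90.4 and 92.5 CPM in Sayeok-tang libraries (-0.68 ± 0.076). Glucocorticoid targets gave 5 higher and 4 lower of 11, which library size alone turned to 3 and 5; DUSP1, a MAPK phosphatase, differed by 1.01 ± 0.076.

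Metabolic and organelle lists were mixed or depended on the scaling. Hypoxia genes gave 8 higher and 9 lower of 21 (median 0.0078), 5 and 11 with library size alone. VEGFA, the angiogenic factor, had 556 and 597 CPM in Banhasasim-tang libraries, against 379, 373 and 400.5 CPM in Sayeok-tang libraries (0.59 ± 0.049), and NDRG1, also a stress gene, had 138 and 153 CPM in Banhasasim-tang libraries, against 40.6, 46.1 and 47.6 CPM in Sayeok-tang libraries (1.70 ± 0.056). Glycolysis genes were lower in 11 of 22 and higher in 4, with LDHA, lactate dehydrogenase, at 888 and 874 CPM in Banhasasim-tang libraries, against 1313, 1356 and 1243 CPM in Sayeok-tang libraries (-0.57 ± 0.058). Autophagy and lysosome genes were higher in 15 of 27 and lower in 5 under TMM, but 6 and 8 with library size alone. MAP1LC3B (LC3), which coats autophagosomes, had 176 and 181 CPM in Banhasasim-tang libraries, against 109.7, 118 and 108 CPM in Sayeok-tang libraries (0.68 ± 0.048). Nuclear genes of the respiratory chain gave 6 higher and 3 lower of 27, and 0 and 12 with library size alone. Cytosolic ribosomal proteins gave 12 higher and 0 lower of 26, and 2 and 0 with library size alone. Ribosome biogenesis gave 16 and 2 of 30 under TMM, and 2 and 5 with library size alone. DDX21, a nucleolar helicase, was the furthest apart of that list (0.56 ± 0.044).

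Receptors and cell-type genes ended the survey. Beside NGFR and CD248, the growth factor receptor PDGFRA had 10.3 and 10.9 CPM in Banhasasim-tang libraries, against 19.8, 18.03 and 17.2 CPM in Sayeok-tang libraries (-0.79 ± 0.084), in a receptor list with 3 of 10 higher and 5 lower. Intracellular serpins gave 1 higher and 4 lower of 9, with SERPINB3 at 1.14 and 1.37 CPM in Banhasasim-tang libraries, against 3.62, 4.16 and 3.96 CPM in Sayeok-tang libraries, read counts it may share with its near-identical neighbour SERPINB4. Simple epithelial keratins gave 2 higher and 1 lower of 7, and KRT80 had 103 and 113 CPM in Banhasasim-tang libraries, against 61.3, 60.8 and 64.9 CPM in Sayeok-tang libraries (0.79 ± 0.050). Of 11 astrocyte markers 8 passed the filter on low counts, 0 were higher and 4 lower, and their summed level was 265 to 268 CPM for Banhasasim-tang, against 353 to 363 CPM for Sayeok-tang. SLC1A3, the glial glutamate transporter, had 7.68 and 8.18 CPM in Banhasasim-tang libraries, against 24.0, 22.4 and 23.2 CPM in Sayeok-tang libraries (-1.54 ± 0.065). Neuron markers gave 2 higher and 2 lower of 7 (sums of 104 to 110.4 CPM, against 116 to 119 CPM). Oligodendrocyte markers gave 2 and 1 of 4 (126 to 129.6 CPM, against 140.1 to 146 CPM). Microglia and macrophage markers gave 0 and 2 of 4 (213 to 243 CPM, against 235 to 242 CPM), and the leukocyte phosphatase PTPRC (CD45) was at 3.44 and 2.87 CPM in Banhasasim-tang libraries, against 6.40, 5.56 and 5.77 CPM in Sayeok-tang libraries (-0.93 ± 0.12). Mesenchymal markers gave 2 higher and 6 lower of 8 (7672 to 8188 CPM, against 7815 to 8002 CPM), and of 7 epithelial and liver markers 1 passed the filter on low counts. The part of these cell-type genes in the other results was not tested.

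Whether the formulas part because of the dose was asked by the difference in dose effect: 500 over 20 µg/mL of Banhasasim-tang minus the same of Sayeok-tang. A feature of the label set that acts alike at both doses cancels in it. Of 19632 genes 4791 (24.4%) passed, 2391 (12.2%) with a higher and 2400 (12.2%) with a lower Banhasasim-tang effect; with library size alone these were 1429 and 3841. Banhasasim-tang itself changed 8572 genes (43.7%) from the lowest to the highest dose, and Sayeok-tang 4031 (20.5%). The higher dose raised 4387 genes (22.3%) and lowered 4185 (21.3%) with Banhasasim-tang, against 1942 (9.89%) and 2089 (10.6%) with Sayeok-tang; with library size alone these were 3359 and 5184, against 2639 and 1563. These dose effects share no library with each other.

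Where both formulas changed a gene, most genes moved in a shared direction. Of the genes called for both, 2892 moved the same way, which is 33.7% of the Banhasasim-tang calls and 71.7% of the Sayeok-tang calls. In them the median ratio of the Banhasasim-tang effect to the Sayeok-tang effect was 1.79 on the log2 scale. For 1326 of these genes the difference itself passed the test, and in 1305 of them the Banhasasim-tang effect was the larger one. A further 5506 genes were called for Banhasasim-tang and not for Sayeok-tang, and the difference passed in 2923 of them. Another 965 genes, 23.9% of the Sayeok-tang calls, were called for Sayeok-tang and not for Banhasasim-tang. In 247 of these 965 the difference passed. Opposite directions were called in 174 genes.

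**Figure D3:**
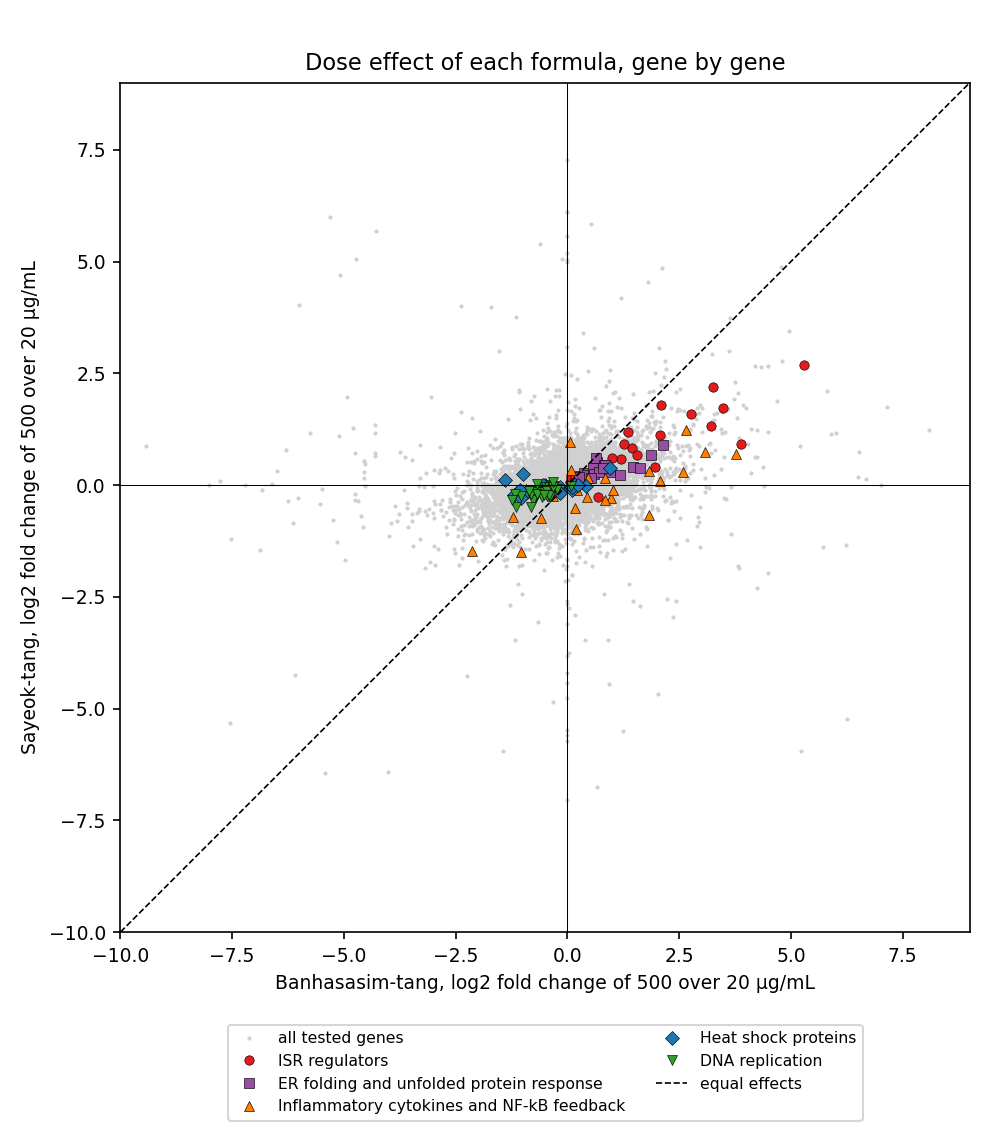
Log2 fold change of 500 over 20 µg/mL for Banhasasim-tang (horizontal axis) and Sayeok-tang (vertical axis), 1 point per tested gene, with members of 5 lists marked and a dashed line of equal effects. Most ISR regulators lie right of 0 and below the line, with GDF15 furthest out at 5.29 and 2.69, and most replication genes lie left of 0.

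GDF15 was an example of a shared direction: its dose effect was 5.29 ± 0.084 for Banhasasim-tang and 2.69 ± 0.070 for Sayeok-tang. ATF3 rose by 3.89 ± 0.14 and 0.92 ± 0.13, and HSPA5 by 1.87 ± 0.057 and 0.67 ± 0.045, for Banhasasim-tang and Sayeok-tang in that order. In the ISR list 19 of 23 members rose with the dose of Banhasasim-tang and 18 with that of Sayeok-tang, with medians of 1.36 and 0.68. The difference passed the test in 13 members higher and 0 lower, and for CHAC1 it did not (0.29 ± 0.13, edgeR adjusted p = 0.115). Among ER folding genes it passed in 16 of 23, all higher, among replication genes in 30 of 35, all lower, and among heat shock genes in 13 lower and 3 higher of 21. HMOX1 is a counterexample, for it rose more with Sayeok-tang: 2.18 ± 0.066 for Banhasasim-tang, against 2.78 ± 0.055 for Sayeok-tang (difference -0.59 ± 0.082, edgeR adjusted p = 3.31e-06).

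Beside the genes already described, the 8 largest differences in each direction added IL1A (2.33 ± 0.34) and ASB9, a ubiquitin ligase adaptor (-1.87 ± 0.37). Of genes with opposite dose effects CXCL8 came first, at 1.82 ± 0.14 for Banhasasim-tang and -0.66 ± 0.13 for Sayeok-tang. ADAMTS6 was at 1.41 ± 0.072 for Banhasasim-tang and -0.25 ± 0.064 for Sayeok-tang, and GREM1, an antagonist of BMPs, at 1.19 ± 0.080 and -0.19 ± 0.069 in that order. HSPA1B fell with Banhasasim-tang and rose with Sayeok-tang (-0.99 ± 0.055 and 0.25 ± 0.043). LIF, a cytokine of the IL-6 family, rose with Banhasasim-tang and fell with Sayeok-tang (0.85 ± 0.11 and -0.33 ± 0.094). In Sayeok-tang libraries LIF had 34.5, 24.4 and 26.2 CPM at 20 µg/mL, against 21.6, 22.9 and 23.5 CPM at 500 µg/mL. There GREM1 had 18.4, 15.1 and 13.9 CPM, against 14.4, 13.6 and 13.6 CPM, with overlap (edgeR adjusted p = 0.0490). The Sayeok-tang falls of LIF and GREM1 were thus small, and replicate 1 at 20 µg/mL was the highest library in both. HAS2 fell with Sayeok-tang (-0.85 ± 0.055), whereas the Banhasasim-tang value was -0.062 ± 0.066 and did not pass. CEMIP likewise fell with Sayeok-tang (-1.17 ± 0.10), and its Banhasasim-tang value of -0.28 ± 0.12 did not pass.

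At 100 µg/mL 3215 genes (16.4%) differed between the formulas, 1716 (8.74%) higher and 1499 (7.64%) lower in Banhasasim-tang libraries. Under library size alone 628 were higher and 5196 lower, with a median of -0.13 over all genes. The count fell to 1847 without Banhasasim-tang replicate 2 and to 1578 without replicate 3. The ISR list was already apart at this dose, with 18 of 23 higher and 0 lower and a median of 0.96. Replication genes were lower in 33 of 35 (median -0.38), and the inflammatory list was divided, 5 higher and 5 lower of 26. ADM2, a peptide hormone of the ATF4 programme, had 16.8 and 16.8 CPM in Banhasasim-tang libraries, against 3.01, 2.60 and 2.66 CPM in Sayeok-tang libraries (2.61 ± 0.11). CHAC1 had 31.5 and 31.8 CPM in Banhasasim-tang libraries, against 5.82, 6.48 and 5.95 CPM in Sayeok-tang libraries (2.38 ± 0.090). Its fold change was thus higher at 100 than at 500 µg/mL (0.996), and between these doses its level moved more with Sayeok-tang than with Banhasasim-tang. CXCL8 overlapped at 100 µg/mL, with 3.50 and 3.42 CPM in Banhasasim-tang libraries, against 3.38, 3.05 and 4.10 CPM in Sayeok-tang libraries (-0.027 ± 0.14).

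At 20 µg/mL 26 genes (0.132%) passed edgeR's test, 21 higher (0.107%) and 5 lower (0.0255%), and 1156 had an unadjusted p below 0.05. The count moved between 4 and 189 with other settings and between 5 and 36 when 1 library was left out, and was 5 without Banhasasim-tang replicate 2, 9 without replicate 3 and 7 without Sayeok-tang replicate 1. ISR genes were 5 of the 21 higher ones: CHAC1 (0.71 ± 0.10), ADM2 (0.91 ± 0.14), DDIT3 (0.42 ± 0.081), TRIB3 (0.39 ± 0.067) and SESN2 (0.29 ± 0.054). TXNIP, an inhibitor of thioredoxin and of glucose uptake, was lower at both lower doses and not at the high one. At 20 µg/mL it had 4.67 and 5.02 CPM in Banhasasim-tang libraries, against 8.35, 10.1 and 9.09 CPM in Sayeok-tang libraries (-0.93 ± 0.11). At 100 µg/mL it had 2.21 and 2.45 CPM in Banhasasim-tang libraries, against 8.31, 9.42 and 9.71 CPM in Sayeok-tang libraries (-1.98 ± 0.13). At 500 µg/mL it had instead 5.86 and 5.00 CPM in Banhasasim-tang libraries, against 4.49, 4.42 and 3.98 CPM in Sayeok-tang libraries (0.32 ± 0.12, edgeR adjusted p = 0.0351). That last call was lost with library size alone (0.17), also when mitochondrial ribosomal RNA was left out of it, with limma-voom and without Banhasasim-tang replicate 2 or Sayeok-tang replicates 2 or 3. HMOX1 turned the other way, from 0.35 ± 0.059 at 20 to -0.24 ± 0.057 at 500 µg/mL.

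**Figure D4:**
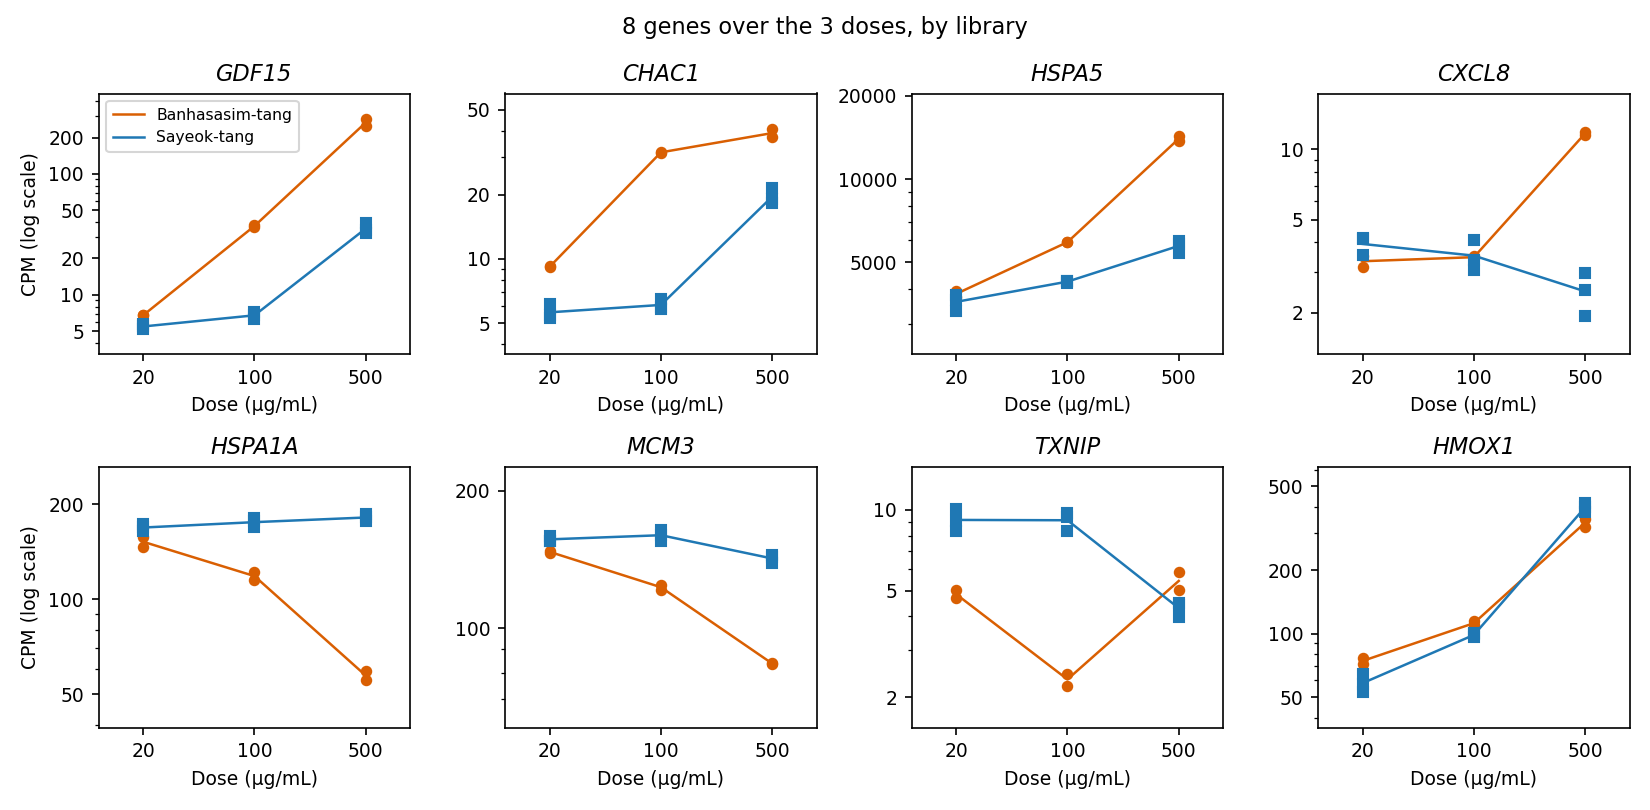
Levels in CPM (log axis) of 8 genes at 20, 100 and 500 µg/mL, with 1 point per library and lines through the group means, Banhasasim-tang in orange circles and Sayeok-tang in blue squares. GDF15, CHAC1 and HSPA5 are apart at 100 and 500 µg/mL, CXCL8 is apart at 500 µg/mL and overlaps at 100 µg/mL, and the lines of TXNIP and HMOX1 cross.

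Abundant RNAs of the mitochondrial ribosome also differed, in 2 genes chosen after their values were seen. MT-RNR1 (12S, chrM:648-1601) had 16231 and 17464 CPM in Banhasasim-tang libraries, against 1218, 1676 and 1091 CPM in Sayeok-tang libraries (3.66 ± 0.19, edgeR adjusted p = 1.26e-11). MT-RNR2 (16S, chrM:1671-3229) had 67279.5 and 66305 CPM in Banhasasim-tang libraries, against 12692, 14458 and 14517 CPM in Sayeok-tang libraries (2.27 ± 0.063). MT-RNR1 was higher at every dose of Banhasasim-tang. It had 5389 and 4247 CPM at 20 µg/mL and 16307 and 17432 CPM at 100 µg/mL, against 1001, 1281 and 1136 CPM at 20 µg/mL and 1179.9, 1104 and 1277 CPM at 100 µg/mL for Sayeok-tang. Vehicle libraries were at 701 ± 14.8 CPM (SD, n = 3), and the Yijung-tang library at 500 µg/mL, of the same label set as Banhasasim-tang, was at 1183 CPM. The mitochondrially encoded mRNAs, cut from the same transcripts, were not higher: 0 of 13 were higher and 1 lower (median -0.050), and 0 and 3 with library size alone. At 100 µg/mL 6 of them were lower. MT-CO1, of cytochrome oxidase, had 11975 and 13899.5 CPM in Banhasasim-tang libraries, against 14599.9, 15173 and 16397 CPM in Sayeok-tang libraries (-0.25 ± 0.10, edgeR adjusted p = 0.0523), and this difference passed with DESeq2, RLE scaling, library size alone (-0.40), either other filter on low counts and the compared groups alone. What sets the level of these RNAs was not tested.

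**Figure D5:**
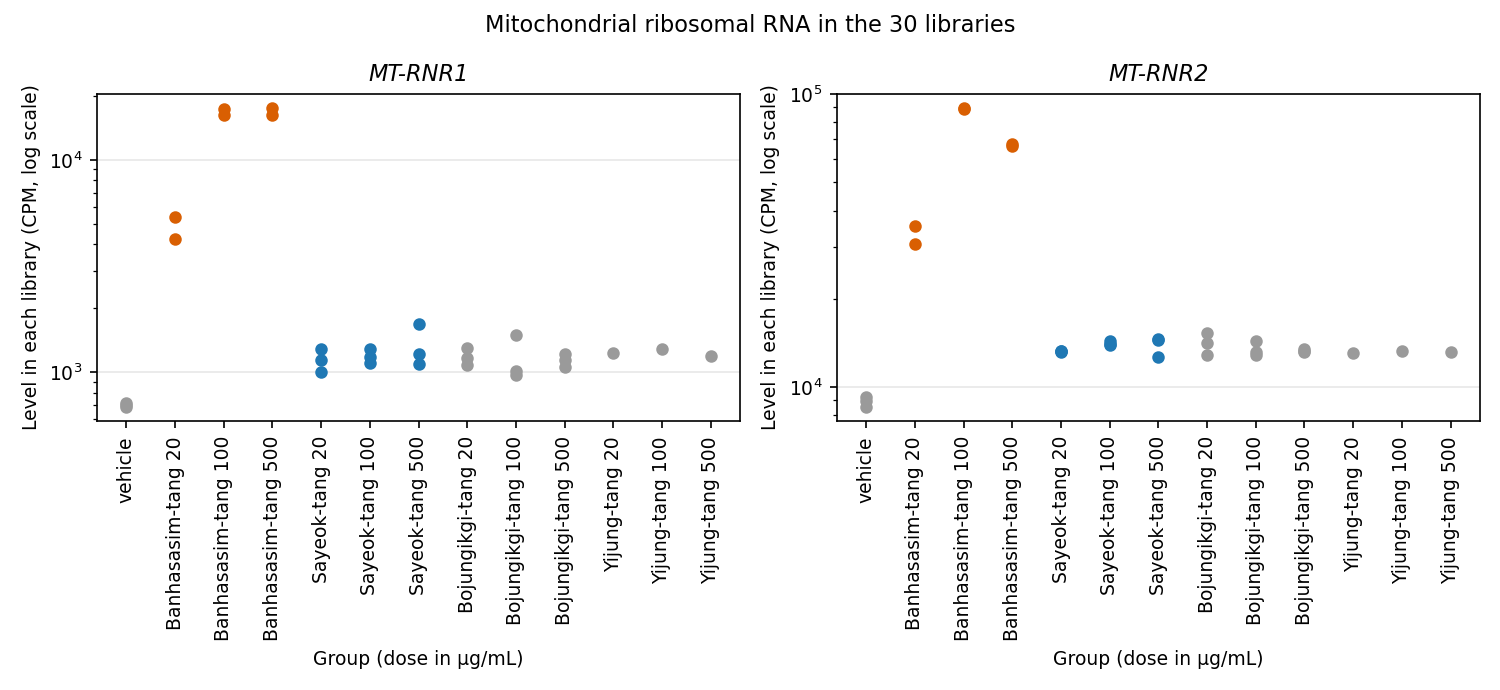
Levels in CPM (log axis) of the mitochondrial ribosomal RNAs MT-RNR1 and MT-RNR2 in all 30 libraries by group and dose, 1 point per library. The 6 Banhasasim-tang libraries lie above all others at every dose, and the Yijung-tang libraries, of the same label set, lie with the rest.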

How the data were processed

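The authors deposited a table of expected counts per Ensembl gene, with fractions in 9.36 to 11.1% of the values of a library. Per the submitters' processing notes the build was GRCh38 (hg38) and the tools were RSEM 1.3.3, STAR 2.7.3a, FastQC 0.11.9 and Trim Galore 0.6.5. The order of these steps and the annotation release are not given in the sources used here. RSEM splits reads between similar genes, so near-identical copies (HSPA1A and HSPA1B, SERPINB3 and SERPINB4, metallothioneins) are uncertain. Groups came from the sample labels, and 0 columns of the table were left without a sample. Water extracts and positive controls were not analysed here, and the results of some single genes are not reported here.

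Counts were rounded to whole numbers, and edgeR 4.0.16 (R 4.3.3, limma 3.58.1) was run with TMM scaling. The filterByExpr filter kept 19632 of 60675 genes. One quasi-likelihood model with robust dispersion held 13 groups and 30 libraries, so that all groups share the estimate of spread. P-values were adjusted over all tested genes by Benjamini-Hochberg at 0.05. The standard error of a fold change is its size over the square root of the F statistic and is approximate. Levels are CPM, and the correlation of same-numbered libraries used log2 CPM with a prior count of 2. Of the identifiers 41275 (68.0%) have a symbol, and 57055 are in GENCODE release 29, the source of coordinates. Promoters are those of RefSeq (GRCh38.p14), 250 bases before the start. Simulated data of the 500 µg/mL comparison held 19632 genes. Changes of 1.5-fold, 2-fold and 3-fold were called in 88, 98 and 100% of 50 genes each. The smallest changes, below 1.5-fold, were called in 50% of 50 genes, 4 of 172 calls were false and 0 had the wrong sign. There the changed genes had at least 1 CPM and went evenly in both directions, all other genes had equal means, and the spread was that of the fit. In the real data 41.3% of genes were called and directions depended on the scaling, so these rates need not hold for them.

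Named genes are the 14 highest and 14 lowest protein-coding fold changes that were called at 500 µg/mL, with at least 1 CPM on average and no overlap between the formulas. To these come the 8 highest and 8 lowest differences in dose effect, up to 4 called members of each of 47 gene lists, and members whose role is described. The members and lists were chosen with earlier results of these data known. Alternatives were DESeq2 1.42.0, limma-voom, other scalings and filters, smaller sets of libraries, the 7SK level as a covariate, the replicate number as a block, and leaving out each library in turn. Depth was 28.01 to 59.9 M counts per library, and 2 or 3 libraries per group limit the precision more than the counts do.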

Additional observations from a re-analysis of the deposited data

Results flagged for a closer look

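For 4791 of 19632 genes the effect of 500 over 20 µg/mL differed between Banhasasim-tang and Sayeok-tang by the interaction test of edgeR at an adjusted p of 0.05. The genes given below are among them. Values below are the Banhasasim-tang effect minus the Sayeok-tang effect on the log2 scale.

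Among stress regulators the difference was 2.97 for ATF3, 2.60 for GDF15 and 1.90 for DDIT3. Among chemokines and cytokines it was 3.08 for CXCL3, 2.49 for CXCL8 and 2.33 for IL1A. OSCAR, a collagen receptor, stood at 3.13, HKDC1, a hexokinase family member, at 3.00, LAMP3, of lysosomes, at 2.81 and NGFR, the p75 neurotrophin receptor, at 2.78. The remaining genes with a higher Banhasasim-tang effect were IRF4 (2.32), BEX4 (2.30), CLDN1 (2.12), KRT75 (2.06) and KCP (1.69).

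The lowest value was that of CD248, endosialin, at -2.61. SHROOM2 was at -2.10, FAM13C at -2.07, KLHL3 at -1.90, NDST3 at -1.88, ASB9 at -1.87 and TCAF2 at -1.84. EGLN3, the hydroxylase of hypoxia-inducible factors, was at -1.78, the integrin ITGB8 at -1.77 and the ligand APLN at -1.76. RIPOR2 was at -1.64, RASL11A at -1.61, the growth factor FGF7 at -1.58, VAV3 at -1.46 and LGR6 at -1.45.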

How the results depend on the processing

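At 500 µg/mL the count of called genes lay between 6371 and 8921 over all alternatives, against 8101, and that of the difference in dose effect between 3813 and 5270, against 4791. At 100 µg/mL library size alone gave 5824 against 3215, and leaving out 1 library gave 1578 to 3457, with 1847 without Banhasasim-tang replicate 2 and 1578 without replicate 3. At 20 µg/mL the 26 calls became 54 with DESeq2, 189 with no filter on low counts and 4 with the compared groups alone, and leaving out 1 library gave 5 to 36. Where 1 Banhasasim-tang library is left, it is assumed to vary like the other groups. The cause of these moves was not tested.

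The 28 genes of the rule at 500 µg/mL kept direction and call in 476 of 476 alternatives, and the 16 genes of the difference in dose effect in 336 of 336. Of all 224 genes examined 3742 of 3806 values kept both, and 27 genes lost the call at least once. Sign changes fell on 4 genes that were not called: leaving out 1 library gave -0.058 to 0.16 for CDKN1A, -0.039 to 0.011 for EIF2AK1, -0.083 to 0.037 for EIF2AK2 and -0.0022 to 0.071 for EIF2AK3. With library size alone CDKN1A was at -0.089 and EIF2AK3 at -0.11, with the replicate block EIF2AK2 was at 0.010, and without mitochondrial ribosomal RNA in the library size, a setting chosen after seeing the data, EIF2AK3 was at -0.021. Of the counts over gene lists 56 moved by over 1.5 times with library size alone, 33 without Banhasasim-tang replicate 3, 23 without mitochondrial ribosomal RNA in the library size, 19 with no filter, 18 without Banhasasim-tang replicate 2 and at most 14 under each other alternative.

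With the replicate number as a block 8115 genes were called at 500, 3530 at 100 and 25 at 20 µg/mL, 4993 in the difference in dose effect, 8724 for Banhasasim-tang and 4151 for Sayeok-tang by dose. Deviations of same-numbered libraries of Banhasasim-tang and Sayeok-tang correlated at -0.11, -0.17 and -0.21 at 500, 100 and 20 µg/mL over 9957 genes. No positive correlation was thus seen between the formulas at any dose. Whether same-numbered libraries of a formula are paired across doses was not tested, and a shared culture cannot be judged from these values. The covariate was 7SK because no 18S locus is named.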

Other observations

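ALDH1A1, a retinaldehyde dehydrogenase, passed the test at 100 µg/mL on the strength of 1 library. It had 0.0391 and 0 CPM in Banhasasim-tang libraries, against 0.0982, 8.64 and 0.0345 CPM in Sayeok-tang libraries.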
